A study of Drosophila melanogaster with 6 samples.

Results

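The heterogeneous nuclear ribonucleoprotein (hnRNP) genes sqd, Hrb27C, Hrb87F, Hrb98DE, glo and Syp were followed, gene by gene and transcript by transcript, in wing imaginal discs of Drosophila melanogaster. These 6 genes were taken by name from 17526 genes listed in the transcript tables, with sqd at their head because its listed transcripts differ between the groups. They were chosen by their FPKM, the deposited transcript abundance, in the contrast between the groups, so their values are given as a description without a test. The groups were 3 libraries with MS1096-Gal4 driving an RNAi transgene against dNKAP and 3 control libraries with MS1096-Gal4 alone, so the driver was present in all 6. MS1096-Gal4 is an insertion at Beadex that is active mainly in the wing pouch, and whole discs therefore also hold cells with little or no hairpin. The labels give neither the age of the larvae nor the number of discs in a library.

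hnRNP proteins bind nascent transcripts through RNA recognition motifs, and they influence which exons are joined, when an mRNA leaves the nucleus and where it is translated. Many of them act on splicing against the serine- and arginine-rich (SR) proteins, and several hnRNP genes of animals control their own transcripts through splicing. In flies the group is best known from the oocyte, where Squid, Hrp48 and Syncrip take part in the localisation and translation of gurken and oskar mRNA.

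Depth times length, summed over the listed transcripts, came to 4.14 to 4.55 gigabases per library in dNKAP RNAi and 4.71 to 6.44 gigabases in controls. The targeted gene, dNKAP (CG6066), was at 11.4 to 13.96 FPKM in dNKAP RNAi and 22.8 to 26.6 FPKM (fragments per length of transcript and per size of library) in controls (log2 change -0.90, SE 0.11, limma adjusted p = 0.0146). Of 10 markers of the wing disc epithelium 9 reached a mean of at least 1 FPKM and en was listed at 0, with sums of 538 to 566 FPKM in dNKAP RNAi and 489.9 to 533 FPKM in controls. Of 5 fat body markers 2 reached that mean, while Lsp2, Fbp2 and apolpp were listed at 0, and their sum was 152 to 569.8 FPKM in dNKAP RNAi and 0.991 to 41.8 FPKM in controls. All 5 tracheal markers reached it, with sums of 510.0 to 597 FPKM in dNKAP RNAi and 628 to 863 FPKM in controls. Of 5 salivary gland markers 4 did, with sums of 29.3 to 110.1 FPKM in dNKAP RNAi and 24.5 to 44.6 FPKM in controls. Markers of haemocytes (5 of 5, sums of 10.9 to 19.8 FPKM in dNKAP RNAi and 3.72 to 20.4 FPKM in controls) and of adult muscle precursors (4 of 5, with twi at 0, sums of 56.7 to 72.9 FPKM in dNKAP RNAi and 62.2 to 78.3 FPKM in controls) overlapped between groups. None of 5 markers of neurons and glia reached it, elav and repo were at 0, and sums were 0.957 to 1.79 FPKM in dNKAP RNAi and 0.649 to 5.64 FPKM in controls. The part of these other tissues in the values of the hnRNP genes was not tested. The labels do not state that replicates came from separate animals, so the p-values below refer to the spread among these 6 libraries, which may be technical.

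sqd encodes Squid, an hnRNP of the A/B type whose protein isoforms differ at the carboxy terminus. The gene (FBgn0263396) lies on chromosome 3R, from 13634862 to 13646304 on the minus strand of the dm6 assembly, and its exons overlap no other annotated gene. Ensembl annotates 5 transcripts. sqd-RB has 8 exons, 2115 bases and 344 codons before the stop. sqd-RA ends in a long last exon of 4710 bases, has 5 exons and 5551 bases in all, and encodes 321 codons. sqd-RE and sqd-RC share all introns and encode 308 codons, and sqd-RE stands for both in the tables.

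The annotated transcript that sets itself apart is sqd-RD, with 9 exons. It alone carries an exon of 212 bases, from 13644359 to 13644570, between the first exon and the 41-base exon that the other transcripts join to it. The length of this exon is not a multiple of 3. In the annotation the first 4 exons of sqd-RD are not coding, and the reading frame of 178 codons starts in exon 5, from 13642512 to 13642755. Apart from the 212-base exon, the internal exons of sqd-RD are those of sqd-RB, including the 108-base exon from 13636971 to 13637078 that sqd-RA, sqd-RC and sqd-RE do not have.

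**Figure D1:**
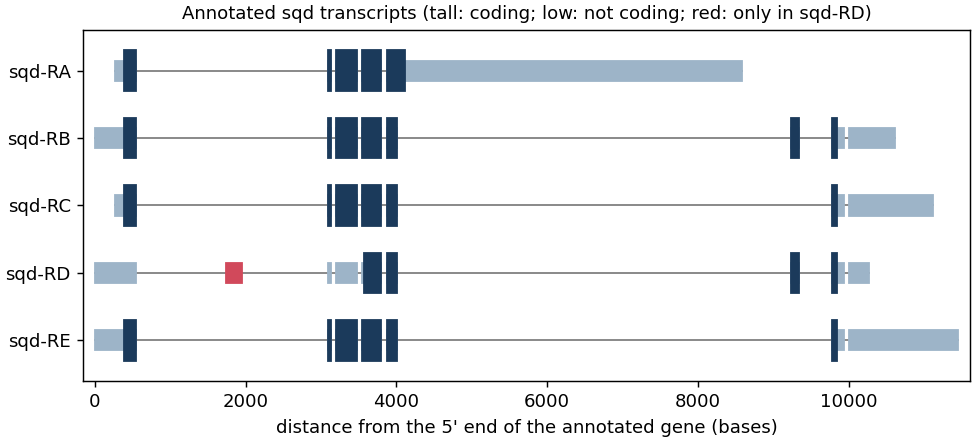
The 5 annotated sqd transcripts, drawn to scale along the distance in bases from the 5′ end of the gene (horizontal axis). Tall boxes are coding and low boxes are not, and the red box is the 212-base exon that only sqd-RD carries.

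In the control libraries sqd was listed as sqd-RB and sqd-RA. In the dNKAP RNAi libraries it was listed as sqd-RA and newly assembled transcripts whose closest reference was sqd-RD. Annotated sqd-RD shares its internal exons with sqd-RB, except for the exon that it alone carries. The closest reference therefore does not by itself separate the new transcripts from sqd-RB. In class code they differed: sqd-RB in controls carried =, an exact match, and every new transcript carried j, as explained below. None of the new transcripts was thus listed as an exact match of sqd-RB. Whether the same RNA was listed under different names in the groups was not tested. sqd-RB was listed at 0 in all 3 dNKAP RNAi libraries, against 156, 155 and 174 FPKM in the control libraries. The deposited upper confidence bound for sqd-RB was 0.0507 to 0.0558 FPKM in dNKAP RNAi, and the controls covered this transcript to a mean read depth of 902 to 1196 per base. The groups did not overlap for sqd-RB. An exact 0 in these tables can be an estimate that failed, as set out for Hrb87F. Whether that holds for sqd-RB in dNKAP RNAi was not tested.

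The new transcripts carried class code j, which marks an assembled transcript that shares at least 1 splice junction with the reference named beside it. Summed over those closest to sqd-RD they measured 359.9, 327 and 93.5 FPKM in dNKAP RNAi replicates 1 to 3, and no control library listed one. dNKAP RNAi replicate 1 had a single such transcript, of 1369 bases, at 359.9 FPKM with bounds of 343 and 377 FPKM. dNKAP RNAi replicate 2 had one of 1669 bases at 240.0 FPKM and another of 1712 bases at 87.1 FPKM. dNKAP RNAi replicate 3 had one of 1677 bases at 65.0 FPKM and another of 3334 bases at 28.4 FPKM. No length recurred between libraries. The tables name the closest reference and the length but not the exons, so whether these transcripts contain the 212-base exon was not tested. The full-length reference sqd-RD itself, of 1983 bases, was listed at 0 in all 6 libraries.

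sqd-RA, the transcript with the long last exon, was present in both groups. It measured 58.4, 51.2 and 28.0 FPKM in dNKAP RNAi and 57.8, 58.2 and 58.3 FPKM in controls. dNKAP RNAi replicate 1 lay with the controls, and replicate 3 was the lowest of all libraries. The means were 45.9 ± 15.9 FPKM in dNKAP RNAi and 58.1 ± 0.260 FPKM in controls (SD, n = 3 each), and the groups overlapped.

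As shares of the gene, the transcripts closest to sqd-RD made up 86.0%, 86.5% and 76.9% in dNKAP RNAi and 0% in every control library. sqd-RB made up 0% in dNKAP RNAi, against 73.0%, 72.6% and 74.9% in controls. sqd-RA held 14.0%, 13.5% and 23.1% in dNKAP RNAi and 27.0%, 27.4% and 25.1% in controls. In dNKAP RNAi the mean shares were 83.1% ± 5.39 closest to sqd-RD and 16.9% ± 5.39 for sqd-RA, and in controls they were 73.5% ± 1.21 for sqd-RB and 26.5% ± 1.21 for sqd-RA (SD, n = 3 each). None of these shares overlapped between groups. The sqd-RA share is what the other transcripts leave in each library, so it is not a separate result, and in FPKM sqd-RA overlapped. How often shares lie apart in this way was not counted over all genes. Counted in sequenced bases (read depth times length) in place of FPKM, which gives short transcripts less weight, the share closest to sqd-RD was 60.3%, 65.9% and 56.7% in dNKAP RNAi, and sqd-RB was at 50.7%, 50.3% and 53.2% in controls. The choice of the closest reference decides under which name an assembled transcript is summed, and with exact matches alone sqd-RA would be the whole of sqd in dNKAP RNAi.

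**Figure D2:**
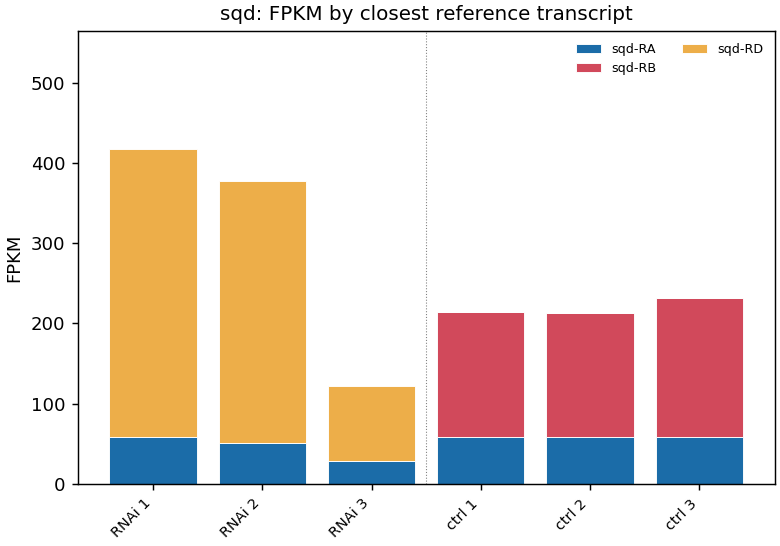
FPKM of sqd in each library (vertical axis), stacked by closest reference transcript, with the 3 dNKAP RNAi libraries left of the 3 control libraries. sqd-RB (155 to 174 FPKM) is seen in the control libraries and transcripts closest to sqd-RD (93.5 to 359.9 FPKM) in the dNKAP RNAi libraries, above a layer of sqd-RA in both.

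How often a reference was lost or gained in this way was counted over all genes of sufficient level, sqd included. Of 4180 genes that averaged 10 FPKM or more and were above 0 in every library, 23 (0.55%) had a closest reference that reached 10% of the gene in every control library and was at 0 in every dNKAP RNAi library. The reverse was seen in 27 genes (0.646%), and both in the same gene in 5 genes (0.12%), which were sqd, Cad86C, Cortactin, PNPase and TP53INP. Only a gene with at least 2 references above 0 in some library can show any of these patterns, which 1577 of the 4180 genes had. Of these, 1.46% showed the loss, 1.71% the gain and 0.317% both. Among the 286 of them that averaged 100 FPKM or more, the shares were 2.80%, 2.45% and 0.699% (2 genes with both). Apart from sqd, the 5 were named after their values were seen. This count describes the tables and carries no test.

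The sum over all sqd transcripts did not separate the groups. It was 418, 378 and 122 FPKM in dNKAP RNAi and 214, 213 and 232 FPKM in controls. The 2 highest values and the lowest value all belonged to dNKAP RNAi, so the control range lay inside that of dNKAP RNAi. Averages were 306 ± 161 FPKM in dNKAP RNAi and 219.7 ± 10.8 FPKM in controls (SD, n = 3 each), with a log2 difference of 0.29 (SE 0.50). That difference was 0.86 when dNKAP RNAi replicate 3 was left out, and -0.03 when replicate 1 was. Scaled to 1000000 sequenced bases per library, sqd held 970.4, 1001 and 426 bases in dNKAP RNAi and 782, 781 and 829 bases in controls, with means of 799 ± 324 in dNKAP RNAi and 798 ± 27.4 in controls (SD, n = 3 each). In whole discs, fewer cells of a type and less RNA per cell cannot be told apart.

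**Figure D3:**
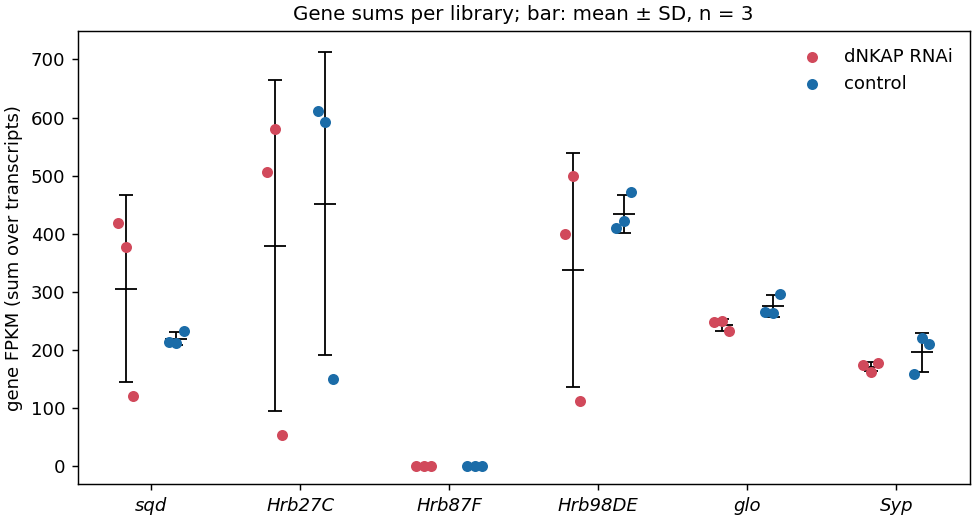
Gene sums in FPKM (vertical axis) of the 6 hnRNP genes, with dNKAP RNAi (red) left of control (blue); points are libraries and bars the mean ± SD, n = 3. dNKAP RNAi replicate 3 is the low point of sqd (122 FPKM), Hrb27C (53.6 FPKM) and Hrb98DE (113 FPKM), and Hrb87F is listed at 0 in all libraries.

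In the controls the order of gene sums was Hrb27C, Hrb98DE, glo, sqd, Syp and Hrb87F, with means of 452 ± 261, 434 ± 32.8, 276 ± 18.9, 219.7 ± 10.8, 197 ± 33.4 and 0 FPKM (SD, n = 3). The first 2 of these overlapped, as did sqd and Syp, whereas the glo libraries (264 to 297 FPKM) all lay above those of sqd (213 to 232 FPKM). In dNKAP RNAi the means of Hrb27C, Hrb98DE, sqd, glo, Syp and Hrb87F were 380.0 ± 285, 337 ± 201, 306 ± 161, 243 ± 9.58, 172 ± 7.46 and 0 FPKM (SD, n = 3). The ranges of the first 3 held those of glo and Syp. A mean of at least 1 FPKM was reached by 5 of the 6 genes. By FPKM the 3 libraries of a group lay apart from those of the other for glo alone. That is 1 of these 5, while 28.5% of all 6506 genes at that level did so. By sequenced bases Syp lay apart as well, with values given below, and how often all genes did so was not counted.

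Hrb27C encodes Hrp48, which binds Squid and takes part in oskar and gurken mRNA regulation and in the repression of a P-element intron. The gene (FBgn0004838; chromosome 2L, 6920704 to 6932057, plus strand) has 8 annotated transcripts that all encode the same 421 codons and differ outside the reading frame. Hrb27C-RE measured 461, 477 and 0 FPKM in dNKAP RNAi and 474, 535 and 0 FPKM in controls. Replicate 3 of each group was at 0, and the other libraries of both groups lay between 461 and 535 FPKM.

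Hrb27C-RF, which starts at 6921260 and ends at 6928675 where Hrb27C-RE starts at 6921639 and ends at 6926046, varied less. It was at 45.9, 34.5 and 53.6 FPKM in dNKAP RNAi and 43.0, 57.4 and 56.4 FPKM in controls, and the groups overlapped. Hrb27C-RD appeared in dNKAP RNAi replicate 2 at 68.7 FPKM and in control replicates 1 and 3 at 95.1 and 94.4 FPKM. The gene sums of 507, 579.8 and 53.6 FPKM in dNKAP RNAi and 612, 593 and 151 FPKM in controls follow whether Hrb27C-RE was listed at 0. Their log2 difference was -0.60 (SE 1.12), and 0.51 without dNKAP RNAi replicate 3. No transcript of Hrb27C was newly assembled in any library.

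Hrb98DE and Hrb87F encode the proteins Hrp38 and Hrp36, the closest fly relatives of mammalian hnRNP A1, and both coat many nascent transcripts. Hrb98DE (FBgn0001215; chromosome 3R, 28599834 to 28605777, plus strand) has 6 annotated transcripts of 360 to 365 codons, which start at 28599834 or at 28600407. Transcripts closest to Hrb98DE-RA, all newly assembled, summed to 238, 416 and 0 FPKM in dNKAP RNAi and to 337, 245 and 336 FPKM in controls. dNKAP RNAi replicate 3 listed none, and the other libraries overlapped between groups.

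Hrb98DE-RB was listed in every library, at 74.8, 83.0 and 57.6 FPKM in dNKAP RNAi and at 72.1, 77.6 and 136 FPKM in controls. A further 3 reference transcripts were each seen in a single library. Hrb98DE-RF was at 87.7 FPKM in dNKAP RNAi replicate 1, Hrb98DE-RE at 55.0 FPKM in dNKAP RNAi replicate 3 and Hrb98DE-RD at 98.9 FPKM in control replicate 2. A transcript of 1534 bases was assembled in 4 libraries, dNKAP RNAi replicates 1 and 2 and control replicates 2 and 3, so both groups held this length. The gene sums were 400.3, 499 and 113 FPKM in dNKAP RNAi and 409.5, 421 and 471 FPKM in controls. Their log2 difference was -0.62 (SE 0.58), and 0.046 without dNKAP RNAi replicate 3.

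Hrb87F (FBgn0004237; chromosome 3R, 13656846 to 13660531, minus strand) has its 3′ end 10541 bases beyond the 5′ end of sqd. Its transcripts Hrb87F-RD and Hrb87F-RE were listed at 0 in all 6 libraries, with upper bounds of 0.0265 to 0.0769 FPKM. All 4 annotated transcripts encode the same 385 codons, and the remaining pair share their introns with Hrb87F-RE. An exact 0 can be an estimate that failed: the actin gene Act5C was also at 0 in 6 libraries and the ribosomal protein gene RpS2 in 4. Of 971 genes that reached 100 FPKM in some library, 62 were at 0 in at least 1 other. The level of Hrb87F is therefore not known from these tables.

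glo encodes Glorund, an hnRNP of the F/H type that represses nanos translation in the oocyte and early embryo. The gene (FBgn0259139; chromosome 3R, 11815206 to 11819420, minus strand) was listed mainly as glo-RA, at 248, 249 and 232 FPKM in dNKAP RNAi and 226, 192 and 297 FPKM in controls. In control replicates 1 and 2 an assembled transcript closest to glo-RB, of 1754 and 1978 bases, added 39.5 and 72.5 FPKM. The other 4 libraries listed none, so glo-RA made up 100% of the gene in dNKAP RNAi and 85.1%, 72.6% and 100% in controls. The annotated glo-RA and glo-RB differ at both ends and encode the same 586 codons. The gene sums were 248, 249 and 232 FPKM in dNKAP RNAi and 265, 264 and 297 FPKM in controls, with means of 243 ± 9.58 FPKM in dNKAP RNAi and 276 ± 18.9 FPKM in controls (SD, n = 3 each). All dNKAP RNAi libraries lay below all controls, by a log2 difference of -0.18 (SE 0.07), but with exact matches alone the difference was 0.053. Exons of COX5A on the other strand overlap glo, and without stated use of strand reads of the genes cannot be told apart.

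Syp encodes Syncrip, the fly relative of mammalian hnRNP Q and R, known in flies from neural stem cells, the synapse and the oocyte. The gene (FBgn0038826; chromosome 3R, 20756729 to 20810726, plus strand) is the longest of the 6, with 20 annotated transcripts. Syp-RC, which encodes 529 codons, measured 40.9, 36.9 and 28.8 FPKM in dNKAP RNAi and 47.5, 69.2 and 54.4 FPKM in controls. All dNKAP RNAi libraries lay below all controls for this transcript, with means of 35.5 ± 6.15 FPKM in dNKAP RNAi and 57.0 ± 11.1 FPKM in controls (SD, n = 3 each). How often the groups lie apart was not counted over all transcripts. For gene sums they did so, in either direction, in 28.5% of 6506 genes.

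As a share of Syp, Syp-RC was 23.4%, 22.6% and 16.2% in dNKAP RNAi and 29.9%, 31.3% and 25.9% in controls, again without overlap. The shares overlapped when counted in sequenced bases, at 26.5%, 24.4% and 17.9% in dNKAP RNAi and 25.4%, 33.5% and 27.7% in controls. Assembled transcripts closest to Syp-RK summed to 133, 95.0 and 119 FPKM in dNKAP RNAi and to 54.7, 152 and 119.6 FPKM in controls, and these overlapped. They numbered 2, 1 and 3 in dNKAP RNAi and 2, 1 and 1 in controls. Their lengths were 2095 to 3960 bases in dNKAP RNAi and 2474 to 7081 bases in controls. The annotated Syp-RK has 7374 bases and 753 codons, and the reading frames of the assembled transcripts are not known. Syp-RQ, of 761 codons, was listed in dNKAP RNAi replicates 2 and 3 at 31.2 and 30.0 FPKM and in control replicates 1 and 3 at 29.2 and 35.9 FPKM, and Syp-RL, of 711 codons, in control replicate 1 alone, at 27.3 FPKM. The gene sums were 174, 163 and 177 FPKM in dNKAP RNAi and 159, 221 and 209.8 FPKM in controls, with a log2 difference of -0.18 (SE 0.14).

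Each control library also listed a short transcript inside an intron of Syp (class code i), which is left out of the sums above. These transcripts had 321, 280 and 473 bases in control replicates 1 to 3, at 5.87, 3.77 and 2.00 FPKM. Their deposited lower bounds ran from 0.793 to 3.02 FPKM. Whether they share a position in the gene was not tested. No dNKAP RNAi library listed one, but every control library held more sequenced bases than any dNKAP RNAi library. How often transcripts of this class are listed in a single group was not counted.

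**Figure D4:**
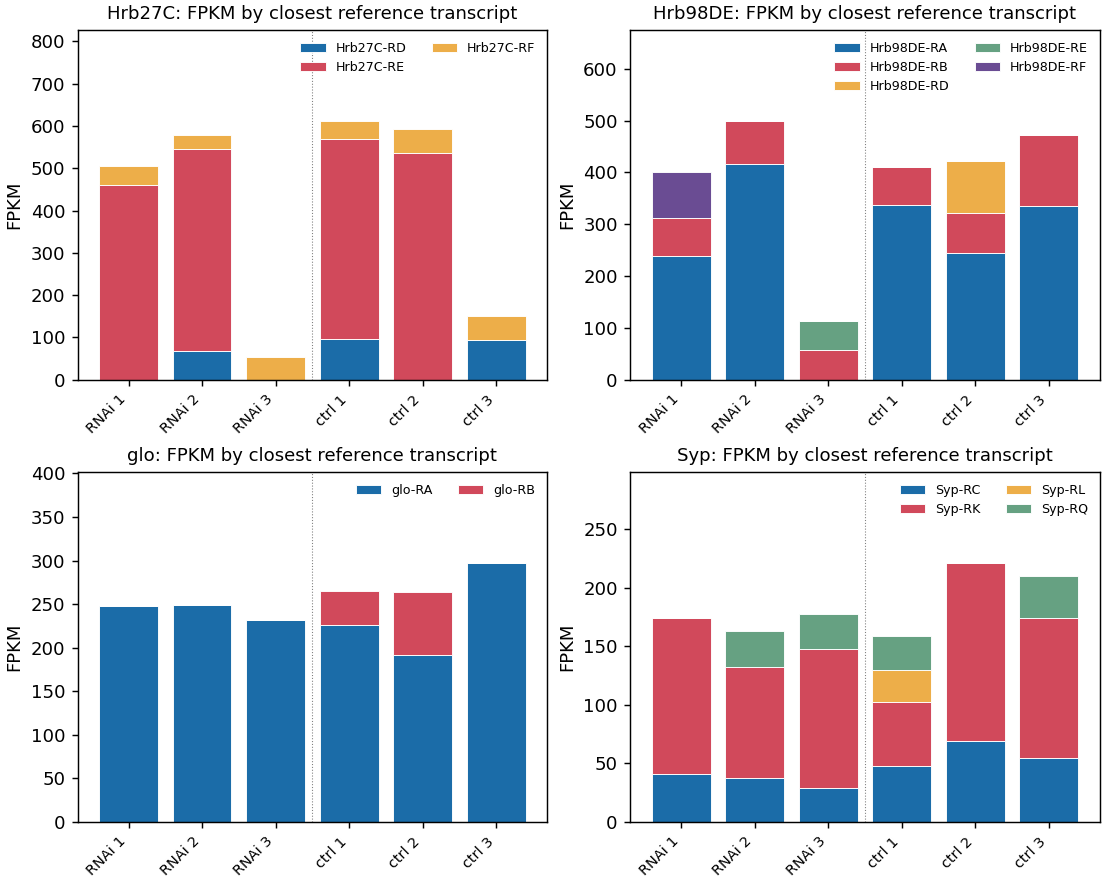
FPKM (vertical axis) of Hrb27C, Hrb98DE, glo and Syp in each library, stacked by closest reference transcript, with dNKAP RNAi left of control. The composition changes between libraries of the same group, as where Hrb27C-RE (461 to 535 FPKM elsewhere) is at 0 in replicate 3 of both groups.

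Other RNA-binding genes around these 6 were tested from 4 lists of 58 genes, of which 57 were listed and 45 reached a mean of at least 1 FPKM. Levels were compared with limma on log2(FPKM + 0.5), which understates changes of low genes, with Benjamini-Hochberg adjustment over all genes tested. Over 6506 genes, 3.72% passed an adjusted p of 0.05, 3.21% higher and 0.507% lower in dNKAP RNAi (209 and 33 genes; with quantile normalization 187 were higher and 62 lower). Of the 45 listed genes, 1 passed as higher in dNKAP RNAi and 0 as lower. Where 19% of all genes tested (1235) had an unadjusted limma p under 0.05, 6 of the 45 listed genes did. Their median log2 change was -0.07, against 0.03 over all genes tested, and 11 of the 45 had groups that did not overlap, against 28.5% of all genes.

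The gene that rose was stau, which encodes Staufen, a double-stranded RNA-binding protein that anchors oskar and bicoid mRNA in the oocyte. It measured 56.6, 55.2 and 61.3 FPKM in dNKAP RNAi and 38.5, 41.5 and 39.1 FPKM in controls. All dNKAP RNAi libraries lay above all controls, and the log2 change was 0.53 (SE 0.06, limma adjusted p = 0.0150). The call ended without dNKAP RNAi replicate 1 (limma adjusted p = 0.0611), without control replicate 1 (0.0602) and without control replicate 3 (0.0614), and the range over all alternatives, a replicate block included at its upper end, was 0.0145 to 0.134. The list of Squid partners and omega-speckle components that holds stau had 1 gene higher and 0 lower of 8 tested, with a median of 0.29. Its germline members otu, grk, orb and osk were at or near 0, and Art1, an arginine methyltransferase, measured 206 ± 7.39 FPKM in dNKAP RNAi and 211 ± 14.9 FPKM in controls (SD, n = 3 each).

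Of 15 tested hnRNP relatives 0 passed in either direction in limma, and 3 had an unadjusted p under 0.05, against 19.0% of all genes tested. For 11 of the 15 the mean log2 was lower in dNKAP RNAi than in controls, against 45.6% of all genes tested. Their median was -0.085 and their range ran from -3.36 to 2.46. The groups did not overlap for 7 of the 15, against 28.5% of all genes tested. In the other lists this held for 2 of 12 splicing regulators, 1 of 10 SR proteins and 1 of 8 Squid partners. Whether the lists differ in this was not tested. rump, an hnRNP M relative, measured 247, 197 and 241 FPKM in dNKAP RNAi and 304, 274 and 284 FPKM in controls. Its groups did not overlap, and the difference of -0.33 (log2, SE 0.10) did not pass (limma adjusted p = 0.180). Exons of CG8149 on the other strand overlap rump. HnRNP-K, close to it in abundance and added after its values were seen, measured 234 ± 21.7 FPKM in dNKAP RNAi and 241 ± 1.58 FPKM in controls (SD, n = 3 each), and the groups overlapped (limma adjusted p = 0.762).

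Psi, the fly relative of KSRP and a known partner of Hrp48 in P-element splicing, was picked out after its values were seen. It was at 41.0, 0 and 34.3 FPKM in dNKAP RNAi and 91.0, 88.3 and 95.3 FPKM in controls. The groups did not overlap, and the 0 in dNKAP RNAi replicate 2 set both the log2 value of the difference, -3.36, and its SE, 1.81 (limma adjusted p = 0.377). Without that library the log2 change was -1.28 (limma adjusted p = 0.0145). In all other alternatives where Psi could be tested, the limma adjusted p was 0.347 to 0.520. Exons of Dek on the other strand overlap Psi. nonA was at 0 in control replicate 2 and at 106 to 132 FPKM elsewhere. Among the 45 tested genes 6 were at 0 in some library.

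The other splicing regulators had 0 of 12 past limma's threshold and 1 with an unadjusted p under 0.05, against 19% of all genes tested. Their median was -0.08. The most abundant were lark, a regulator of the circadian clock, at 189 ± 11.9 FPKM in dNKAP RNAi and 216 ± 14.8 FPKM in controls, and hfp, the fly relative of PUF60, at 152 ± 4.92 FPKM in dNKAP RNAi and 155 ± 24.3 FPKM in controls (SD, n = 3 each). Neither passed (limma adjusted p = 0.266 and 0.952), and exons of Cln7 and eco on the other strand overlap lark. The SR proteins had 0 of 10 past limma's threshold and 1 with an unadjusted p under 0.05, against the same 19%. Their median was -0.11. B52, the most abundant, measured 494, 554 and 529.5 FPKM in dNKAP RNAi and 598, 675 and 546 FPKM in controls (limma adjusted p = 0.325). Rsf1, which represses splicing by binding SR proteins, measured 246 ± 17.1 FPKM in dNKAP RNAi and 272 ± 19.5 FPKM in controls (SD, n = 3 each, limma adjusted p = 0.402).

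**Figure D5:**
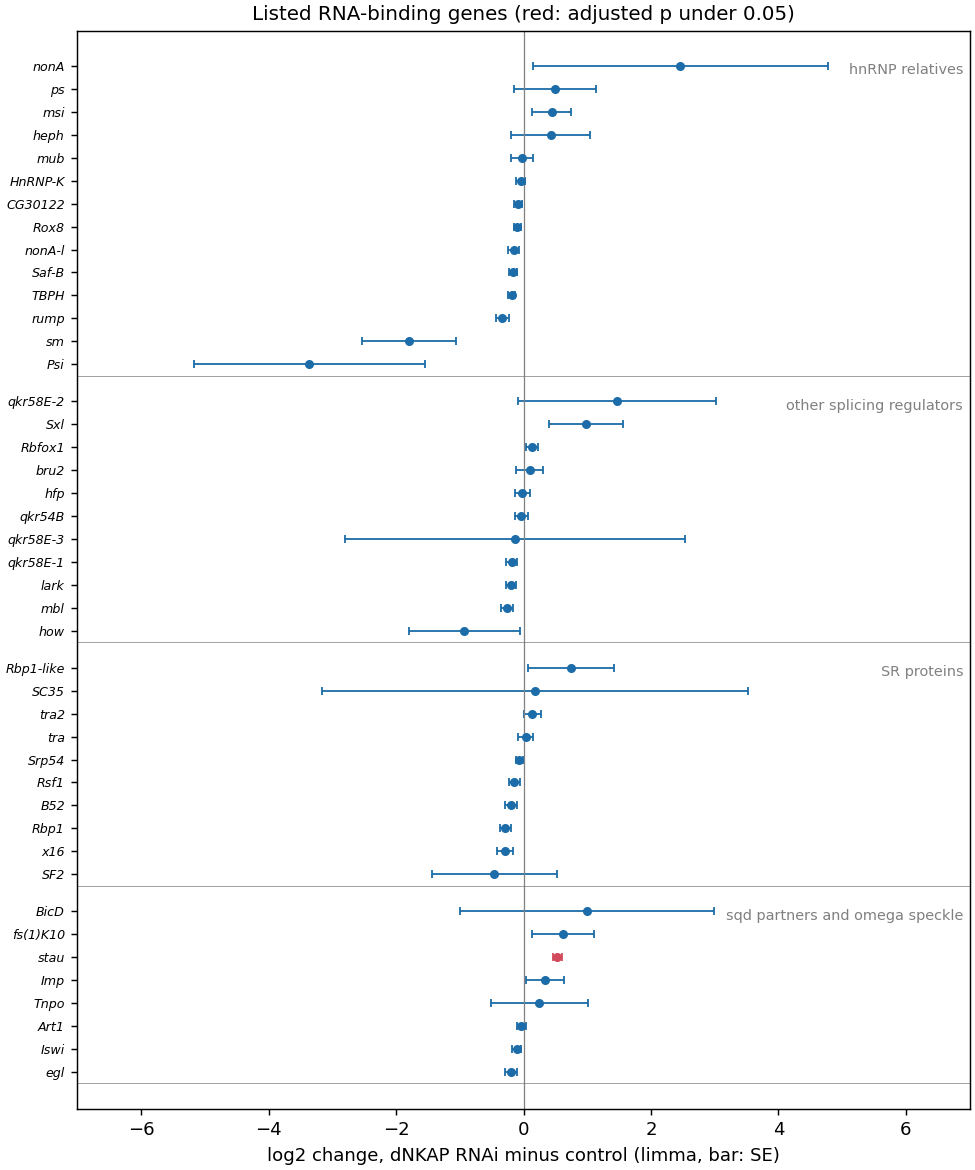
Log2 change (horizontal axis, dNKAP RNAi minus control; bars are SE from limma) of 43 of the 45 tested genes in 4 lists of RNA-binding genes, sorted within each list. stau, at 0.53, is the 1 gene past an adjusted p of 0.05, and the widest bars belong to genes listed at 0 in some library.

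Transcript usage, the part that each closest reference holds within its gene, was tested with limma's diffSplice in genes with at least 2 transcripts of a mean of at least 1 FPKM. It passed an adjusted p of 0.05 in 42 of 1791 genes, or 2.35%. Of the 29 listed RNA-binding genes that could be tested 0 passed and 2 had an unadjusted p under 0.05, as did 219 of all 1791 genes. Without dNKAP RNAi replicate 2, Psi and Tnpo, the importer of hnRNP proteins, did pass (limma adjusted p = 2.98e-04 and 0.0392), and without control replicate 1 stau did (0.0258).

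The genes whose log2 values followed those of sqd most closely over the 6 libraries were CG33695, CG6693, CG32202, CG5274 and CG14641, out of 4179 compared. Their Pearson r with sqd was 0.99, 0.98, 0.97, 0.97 and 0.96, the highest of all compared by choice. CG33695 lay between 47.1 and 51.9 FPKM in dNKAP RNAi and between 49.3 and 49.5 FPKM in controls, a far narrower range than that of sqd.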

How the data were processed

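Total RNA came from a Trizol extraction, and the sequencer was an Illumina NextSeq (labels' protocols). A single transcript table was deposited for each of the 6 libraries (3 dNKAP RNAi, 3 control). Each deposited table gives FPKM with lower and upper confidence bounds, the read coverage (mean depth per base, a signal not scaled to library size), the length, a class code against the nearest reference transcript and an isoform percent that was not used here, per the file headers. The layout is that of Cuffcompare. The build is dm6, and FastQC, HTSeq and DESeq are named, per the submitters' processing notes. For the aligner and the assembler's settings: not given in the sources used here. The values are not counts, so no count test was run.

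A gene's value was the sum of FPKM over transcripts with class codes =, c, j and o, and assembled transcripts counted under the reference they were closest to. Of 17525 gene identifiers 149 were replaced through their transcripts' current annotation, and 17429 of the resulting 17527 matched a gene name. Levels were compared with limma 3.58.1 in R 4.3.3 on log2(FPKM + 0.5), using a variance trend and the 6 libraries as 2 groups, for genes that averaged 1 FPKM or more. Transcript usage was compared with limma's diffSplice (Simes p per gene). Both used Benjamini-Hochberg adjustment over all features tested and a threshold of 0.05, and both were tested on simulated data. Tables were built with Python 3.11.15 and pandas 2.3.3. Exon and reading-frame positions come from the Ensembl annotation of the dm6 assembly.

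The genes and lists were chosen with earlier results of these data known. Of 104 list and marker symbols 1 (cup) was not matched and is not analysed here. Named were the 6 genes and their reference transcripts that reached 10% of the gene in any library, list genes past the threshold, the 2 most abundant genes of a list with none past it, the 5 genes whose values followed sqd most closely among genes that averaged 10 FPKM or more, and the target. Individual values that this rule would name are in part not reported here. Alternatives were other pseudocounts (0.1 and 1) and filters (none, and a mean of at least 5 FPKM), quantile normalization, exact matches only, a replicate block, read depth times length in place of FPKM, and leaving out each library. The deposited bounds lay a median of 7.47% to 8.81% around values of 10 to 50 FPKM, which covers counting error within a library only.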

Additional observations from a re-analysis of the deposited data

How the results depend on the processing

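Without each library in turn, genes past the threshold numbered 154 to 191 of all genes (242 with all libraries) and 0 to 2 of the listed RNA-binding genes (1). Genes with changed transcript usage numbered 65 to 80 (42) and 0 to 2 of the listed ones (0). The log2 differences of gene sums ran from -0.03 to 0.86 for sqd, -1.26 to 0.51 for Hrb27C, -1.03 to 0.05 for Hrb98DE, -0.33 to -0.09 for Syp and -0.21 to -0.12 for glo. The sqd shares differed (dNKAP RNAi minus control, percentage points) by -12.7 to -7.97 for sqd-RA, -73.9 to -72.8 for sqd-RB and 81.5 to 86.3 for transcripts closest to sqd-RD.

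With exact matches only, which leaves the assembled transcripts out, the log2 difference was -2.31 for sqd, 0.053 for glo and -0.66 for Syp, and the share difference was 73.5 points for sqd-RA and 0 for sqd-RD. By read depth times length it was -51.4 points for sqd-RB and 61.0 for sqd-RD. With quantile normalization the difference was -0.063 for glo, and calls split into 187 higher and 62 lower in dNKAP RNAi, against 209 higher and 33 lower as deposited. Usage calls numbered 67 with no filter on low values, 24 at a mean of at least 5 FPKM and 2 among transcripts above 0 in every library, a setting added after seeing the data. The cause of these changes in usage calls was not tested.

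The deviations of same-numbered replicates from their group means had correlations of -0.04, 0.06 and -0.005 over all genes tested. Among genes above 0 in every library they were 0.017, 0.068 and 0.064, against -0.116 to 0.055 for replicates of different number. Whether same-numbered replicates share a batch cannot be told from such weak correlations. With a replicate block 77 genes passed, and 0 listed ones (stau at a limma adjusted p of 0.134). The other 55 values under alternatives stayed within 1 SD for gene sums and shares, or within 1.5 times for counts. That within-group SD is wide for sqd (0.70), Hrb98DE (0.82) and Hrb27C (1.58), so large shifts and changes of sign fall inside it. By share of library bases the log2 difference of sqd was -0.097, against 0.29 in FPKM. With exact matches only, that of Hrb98DE was -0.062, against -0.62. Exact 0s, which can be failed estimates, limit what the sqd-RB and sqd-RD values and the gene sums of Hrb27C, Hrb98DE, Hrb87F and Psi can show.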
